A study of Mus musculus with 2 samples.

Results

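The genes described here encode the proteins that hepatocytes, the main cells of the liver, release into blood plasma. They were followed in RNA of mouse embryonic heart, an organ for which these genes are not markers. The set held 34 genes of the 42462 mouse gene rows with a GENCODE M21 name, out of 43346 Ensembl gene rows in each table. They were selected on earlier readings of the same 2 libraries, in which plasma protein genes had low levels and differed between the libraries. Their levels and ratios are therefore given as a description, and all 34 genes were found by gene identifier in both tables.

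Both libraries came from hearts of B6NCrl mouse embryos at 12.5 days, with males and females pooled, and they form 1 group. The labels name them biological replicates 2 and 1 and give the same donor entry for both. No treatment, mutation or transgene is recorded for either. Each library was made from 10 ng of total RNA longer than 200 nt with ERCC spike-in RNAs added. Replicate 2 held 30665218 reads on mouse genes and replicate 1 held 33480027. The 0 that a gene can show corresponds to at most 3 reads, or 0.0978 CPM (reads scaled to all gene reads) in replicate 2 and 0.0896 CPM in replicate 1, for counting error only. Levels are given as deposited in TPM, a share of all transcripts that is scaled for transcript length. The 16 cardiomyocyte markers, led by Actc1, Myl2, Nppa and Myl7, summed to 44575 TPM in replicate 2 and to 44066 TPM in replicate 1. With 1 ratio between 2 libraries there is no replicate check of a difference, and no p-value is given.

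In the mouse embryo, hepatoblasts take over the making of plasma proteins from the visceral endoderm of the yolk sac, and alpha-fetoprotein precedes albumin as the main carrier. The proteins carry lipids, hormones, iron and vitamins, clot the blood and inhibit proteases. Most of their genes share liver-enriched activators of the HNF4, FOXA and C/EBP families. Cps1, the mitochondrial enzyme that opens the urea cycle, is the listed gene whose product is not secreted, so it is no plasma protein.

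The plasma protein genes were low in heart RNA and mostly lower in replicate 2 than in replicate 1. Their TPM summed to 88.7 in replicate 2 and to 330.3 in replicate 1, a 3.73-fold lower sum in replicate 2. They held 3086 reads in replicate 2 and 12325 in replicate 1, or 0.0101% and 0.0368% of the reads on mouse genes. The median member stood at 0.645 TPM in replicate 2 and 2.46 TPM in replicate 1. At least 1 TPM was reached by 14 members in replicate 2 and by 30 in replicate 1. The same 14 passed in both libraries, 16 passed in replicate 1 alone, and 4 (Apoh, Gc, Hp and Cps1) were under 1 TPM in both. No share of all genes is set beside these counts, and values of these libraries chose the members, so nothing is read from the counts. In bulk RNA, fewer cells of a type and less RNA per cell cannot be told apart.

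**Figure D1:**
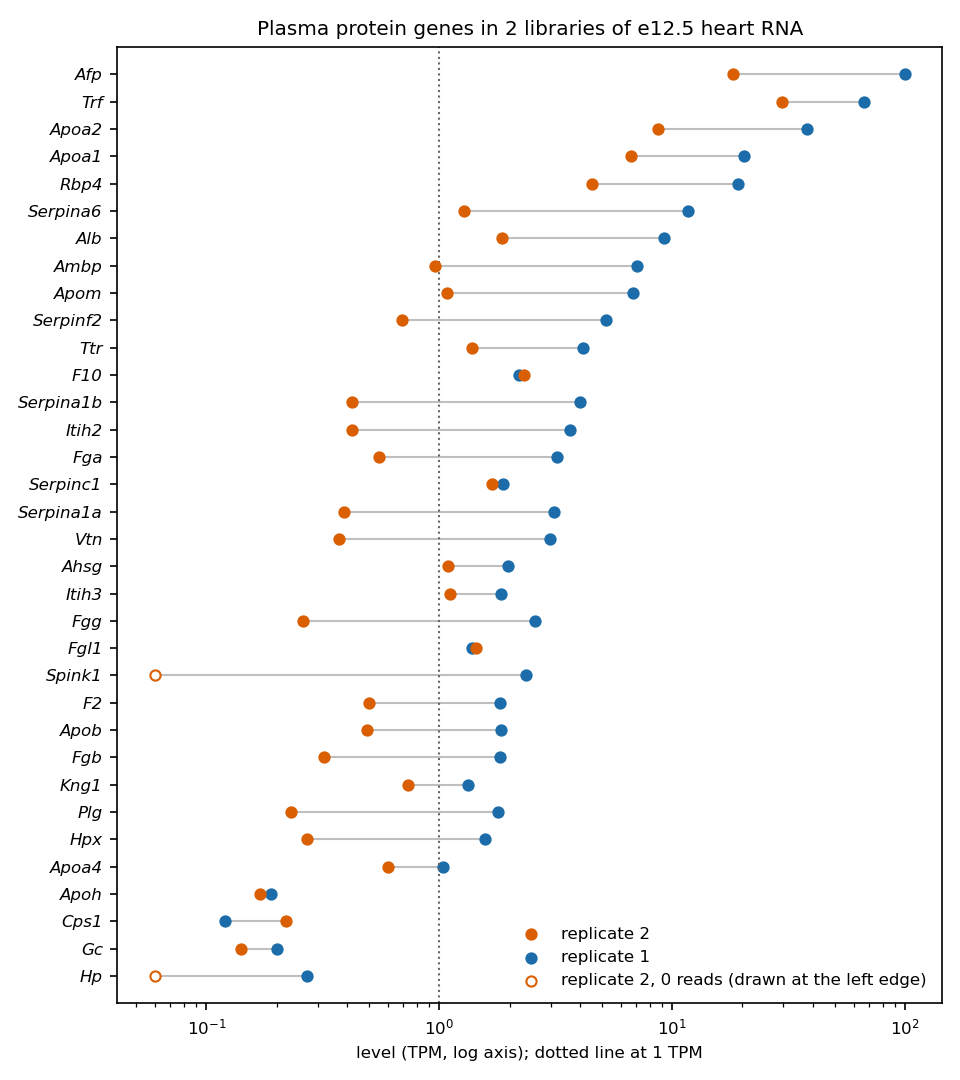
Level of each of the 34 genes (TPM, log axis) in replicate 2 (orange) and replicate 1 (blue), ordered by mean; open points mark genes with 0 reads in replicate 2. In 31 genes the replicate 1 point lies to the right, and the points of F10, Fgl1, Serpinc1 and Apoh nearly coincide.

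The carriers of the plasma led the set. Alpha-fetoprotein, Afp (ENSMUSG00000054932.3; mm10 chromosome 5, 90490737 to 90508907), had 18.2 TPM from 774 reads in replicate 2 and 99.3 TPM from 4662 reads in replicate 1. It was the highest member in replicate 1 and came after Trf in replicate 2. Its log2 ratio of replicate 2 over replicate 1, on reads scaled to the gene reads of each library (CPM), was -2.46 with an exact 95% interval of -2.58 to -2.35, which covers counting error only. Albumin, Alb (ENSMUSG00000029368.9; chromosome 5, 90460897 to 90476602), lies just upstream of Afp and had 1.85 TPM in replicate 2 and 9.23 TPM in replicate 1. Its log2 ratio was -2.33 (-2.70 to -1.98), and the intervals of these neighbours overlap. Gc, the vitamin D-binding protein gene of the same cluster, had 5 reads in replicate 2 and 8 in replicate 1, too few to place its ratio.

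Promoter sequences are shown for genes that were lower in replicate 2 (Alb, Afp, Fga and Fgb) and for genes with like levels in both libraries (F10 and Serpinc1). The genes shown were picked, and a link between sequence and ratio was not tested. Each run is the 120 bases before the RefSeq start site on GRCm38.p6, read 5′ to 3′ on the strand of the gene. Capitals mark matches to CAAAGTCCA (HNF4), TGTTTAC (FOXA) or TTGCNNAA (C/EBP) on either strand.
Alb, chr5:90460750-90460869, plus strand: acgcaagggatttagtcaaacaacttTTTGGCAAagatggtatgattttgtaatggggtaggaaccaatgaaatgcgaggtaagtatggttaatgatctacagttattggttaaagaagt
Afp, chr5:90490594-90490713, plus strand: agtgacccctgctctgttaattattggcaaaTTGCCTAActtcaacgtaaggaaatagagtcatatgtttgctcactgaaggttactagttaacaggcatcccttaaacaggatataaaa
Fga, chr3:83026033-83026152, plus strand: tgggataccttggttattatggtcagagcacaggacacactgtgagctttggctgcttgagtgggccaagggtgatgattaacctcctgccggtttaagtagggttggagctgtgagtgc
Fgb, chr3:83049864-83049983, minus strand: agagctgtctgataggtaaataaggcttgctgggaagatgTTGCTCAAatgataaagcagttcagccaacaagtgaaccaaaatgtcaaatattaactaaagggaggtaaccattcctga
F10, chr8:13037188-13037307, plus strand: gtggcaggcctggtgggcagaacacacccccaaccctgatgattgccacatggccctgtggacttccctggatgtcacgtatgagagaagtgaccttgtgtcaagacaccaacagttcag
Serpinc1, chr1:160978463-160978582, plus strand: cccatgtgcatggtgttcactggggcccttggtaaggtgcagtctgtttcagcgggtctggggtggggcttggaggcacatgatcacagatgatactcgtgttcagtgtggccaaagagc

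Counted from the start site, the C/EBP letters began at base -94 in Alb, on the other strand, at -89 in Afp and at -80 in Fgb. Fga, F10 and Serpinc1 held none of the 3 motifs in these 120 bases, and in the wider window the C/EBP letters lay at -135 in Fga, on the other strand, and at 5 bases past the start in Serpinc1. RefSeq windows of 300 bases, reaching 50 bases past the start, were found for 25 of the 34 members, in 27 windows. In them the C/EBP letters occurred in 13 windows (48.1%), against 10.8% of all 32851 windows. The genes were Afp, Ahsg, Alb, Apoa2, Apob, Fga, Fgb, Hpx, Itih2, Rbp4, Serpina1a, Serpina1b and Serpinc1. A link between the letters and the ratios was not tested. Of the genes with them, Serpinc1 had like levels in both libraries, and Serpina1b and Itih2 were among the lowest ratios. Of the genes with a window without them, F10 had like levels, and Fgg, Ambp and Serpinf2 were among the lowest ratios. The FOXA letters occurred in 3 member windows (11.1%) and in 3.65% of all. The HNF4 letters occurred in 0 member windows and in 0.475% of all, and TATAAA in 6 member windows (22.2%) and 13.6% of all. TTGCNNAA can overlap its own match on the other strand, and a match of letters is not a measured binding site. Cps1, Fgl1, Hp, Kng1, Plg, Serpina6, Spink1, Trf and Ttr had no matched window.

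Transferrin, Trf (ENSMUSG00000032554.11; chromosome 9, 103204001 to 103230444), carries iron. It had 29.6 TPM from 1075 reads in replicate 2 and 66.3 TPM from 2733 reads in replicate 1. It was lower in replicate 2, but by less than most of the set, with a log2 ratio of -1.22 (-1.32 to -1.12). Its share of the summed TPM of the set was therefore larger in replicate 2, at 33.4%, than in replicate 1, at 20.1%, and it replaced Afp as the leading member. Read assignment touches this gene: Gm20425, on the same strand, shares 2108 of the 3320 exonic bases of Trf. Gm20425 held 346 reads in replicate 2 and 384 in replicate 1, a log2 ratio of -0.02 (-0.24 to 0.19), and the posterior SD of the Trf count was 53.9 and 66.3 reads. A short retained-intron transcript of 433 bases (ENSMUST00000190051.1) took 35.9% of Trf TPM in replicate 2 and 33.5% in replicate 1. The full-length transcript ENSMUST00000035158.11 carried 966 of the Trf reads in replicate 2 and 2551 in replicate 1, a log2 ratio of -1.27 (-1.38 to -1.17).

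The carriers of retinol, thyroid hormone and steroid were also lower in replicate 2, by different amounts. Rbp4, which carries retinol, had 4.52 TPM in replicate 2 and 19.2 TPM in replicate 1, with a log2 ratio of -2.10 (-2.47 to -1.75). Ttr, transthyretin, binds both Rbp4 and thyroxine and had 1.38 TPM in replicate 2 and 4.12 TPM in replicate 1, with a log2 ratio of -1.60 (-2.21 to -1.02). The intervals of these partners overlap. Serpina6, the corticosteroid-binding globulin, had 1.27 TPM from 41 reads in replicate 2 and 11.7 TPM from 417 reads in replicate 1. It was 9.32-fold lower in replicate 2 (log2 ratio -3.22, -3.72 to -2.75). The scavengers of free heme and hemoglobin were low: Hpx, hemopexin, had 8 reads in replicate 2 and 51 in replicate 1, and Hp, haptoglobin, had 0 and 8. Against the limit of 3 reads in replicate 2, Hp was 2.44-fold lower there, which leaves out counting error in replicate 1. The exact interval of its log2 ratio, which covers counting error in both libraries, had an upper end of -0.64.

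The apolipoproteins, which build and steer lipoprotein particles, did not share a single ratio. Apoa2, a structural protein of high-density lipoprotein, had 8.69 TPM in replicate 2 and 37.9 TPM in replicate 1 (log2 ratio -2.09, -2.47 to -1.73). Of its forms, ENSMUST00000005824.7 was assigned 26.6 reads in replicate 2 and 256 in replicate 1, with posterior SDs of 10.99 and 38.9 reads. ENSMUST00000111321.3 was assigned 49.5 reads in replicate 2 and 63.9 in replicate 1, with posterior SDs of 10.2 and 20.7 reads, so the forms of this gene differed in ratio as far as shared reads can be split. Apoa1, the main protein of the same particle, had 6.65 TPM in replicate 2 and 20.4 TPM in replicate 1 (log2 ratio -1.65, -1.95 to -1.37). Its interval lay above the median of the set. Apoa4, the neighbour of Apoa1 on chromosome 9, had 0.6 TPM in replicate 2 and 1.04 TPM in replicate 1, with a log2 ratio of -0.81 (-1.62 to -0.03). About 34.8% of the exonic bases of Apoa4 overlap the antisense gene Gm10680, which had 1 read in each library. Apom, the carrier of sphingosine-1-phosphate, had 1.08 TPM in replicate 2 and 6.76 TPM in replicate 1 (log2 ratio -2.67, -3.41 to -2.01). Apoh, which binds anionic phospholipids, had 4 reads in replicate 2 and 5 in replicate 1.

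Apob, the large scaffold of very-low-density and low-density lipoprotein, had 113 reads in replicate 2 and 324 in replicate 1, for a log2 ratio of -1.39 (-1.71 to -1.08). Most of its reads were assigned to the long form ENSMUST00000037811.8, with 103 in replicate 2 and 286 in replicate 1, 2.54-fold lower in replicate 2. The posterior SDs of this form were 26.15 and 36.03 reads. ENSMUST00000037520.9, of 13369 bases, was assigned 7.82 reads in replicate 2 and 16.78 in replicate 1. With its posterior SDs of 25.87 and 35.63 reads, the split between it and ENSMUST00000037811.8 is uncertain. The 1118-base form ENSMUST00000171271.3 was assigned 2.45 reads in replicate 2 and 21.7 in replicate 1, with posterior SDs of 2.04 and 4.65 reads. The intervals of the log2 ratios of ENSMUST00000037811.8 (-1.69 to -1.02) and of the short form (-6.47 to -1.31) overlap, so a difference between them was not shown. The short form made up 23.1% of Apob TPM in replicate 2 and 49.3% in replicate 1, which lowers the TPM of Apob in replicate 2 further, to 0.49 TPM against 1.83 TPM in replicate 1.

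The genes of clotting and clot removal spread over a range of log2 ratios, from -3.32 for Fgg to -0.09 for F10. The 3 chains of fibrinogen, Fgg, Fga and Fgb, lie side by side on chromosome 3 and together summed to 1.13 TPM in replicate 2 and 7.6 TPM in replicate 1. Fgg had 9 reads in replicate 2 and 98 in replicate 1, Fga had 24 and 162, and Fgb had 25 and 160. Their log2 ratios were -3.32 (-4.49 to -2.33), -2.63 (-3.31 to -2.0) and -2.55 (-3.22 to -1.94), and the 3 intervals overlap. Fgg transcript ENSMUST00000048486.8 was assigned 0 reads in replicate 2 and 61.4 in replicate 1, while ENSMUST00000194175.1 was assigned 9 and 36.6. Prothrombin, F2, had 20 reads in replicate 2 and 82 in replicate 1 (log2 ratio -1.91, -2.69 to -1.19). Plasminogen, Plg, whose active form dissolves clots, had 13 reads in replicate 2 and 112 in replicate 1 (log2 ratio -2.98, -3.93 to -2.15). Its inhibitor Serpinf2, alpha-2-antiplasmin, had 28 and 231 reads (log2 ratio -2.92, -3.54 to -2.35). Its forms could not be told apart, since the largest, ENSMUST00000108437.3, was assigned 151 reads in replicate 1 with a posterior SD of 54.8.

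The intervals of coagulation factor X and antithrombin spanned equality. F10 (ENSMUSG00000031444.12; chromosome 8, 13037308 to 13056676) had 2.3 TPM from 69 reads in replicate 2 and 2.2 TPM from 80 reads in replicate 1, a log2 ratio of -0.09 (-0.57 to 0.40). Among its 5 listed transcripts, the estimated reads moved unequally. ENSMUST00000033821.6 was assigned 1.66 reads in replicate 2 and 29.5 in replicate 1, with posterior SDs of 5.56 and 10.4 reads. ENSMUST00000152034.1, the leading form, was assigned 37.7 reads in replicate 2 and 37.5 in replicate 1, with posterior SDs of 9.71 and 13.7 reads. The gene total therefore joined a form that was lower in replicate 2 with forms that were not, as far as the assignment of shared reads can tell them apart. Serpinc1, antithrombin (ENSMUSG00000026715.8; chromosome 1, 160978585 to 161005863), had 1.68 TPM from 169 reads in replicate 2 and 1.88 TPM from 210 reads in replicate 1, a log2 ratio of -0.19 (-0.49 to 0.11). On the opposite strand Zbtb37 shares 2942 of the 8546 exonic bases of Serpinc1, and it had 589 reads in replicate 2 and 661 in replicate 1 (log2 ratio -0.04, -0.20 to 0.12). No source used here states whether the libraries keep strand, and the part of Zbtb37 in the Serpinc1 count was not tested.

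The high-molecular-weight cofactor Kng1, kininogen, had 26 reads in replicate 2 and 58 in replicate 1 (log2 ratio -1.03, -1.76 to -0.34). Its 2 main transcripts had estimates on opposite sides of equality. ENSMUST00000039492.8 was assigned 8.23 reads in replicate 2 and 49.1 in replicate 1, 5.61-fold lower in replicate 2. ENSMUST00000089902.6 was assigned 17.7 reads in replicate 2 and 5.64 in replicate 1, with posterior SDs of 5.02 and 5.16 reads. Ahsg, fetuin-A, an inhibitor of calcification encoded near Kng1 on chromosome 16, had 32 reads in replicate 2 and 64 in replicate 1 (log2 ratio -0.87, -1.53 to -0.24). The intervals of these neighbours overlap, as do those of the fibrinogen genes and of Alb and Afp.

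The remaining protease inhibitors and matrix-binding proteins held some of the lowest ratios. Serpina1a and Serpina1b are copies of the alpha-1-antitrypsin gene on chromosome 12. Serpina1a had 0.39 TPM in replicate 2 and 3.12 TPM in replicate 1, and Serpina1b had 0.42 TPM and 4.03 TPM. Their log2 ratios were -2.95 (-4.00 to -2.05) and -3.23 (-4.22 to -2.37). Their near-identical sequences make the split of reads between them uncertain, with posterior SDs of 4.79 and 4.05 reads in replicate 1. Ambp, the precursor of alpha-1-microglobulin and bikunin, had 0.96 TPM in replicate 2 and 7.02 TPM in replicate 1 (log2 ratio -2.89, -3.57 to -2.27).

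Itih2 and Itih3 encode heavy chains that are bound to bikunin in plasma. Itih2 had 27 reads in replicate 2 and 259 in replicate 1 (log2 ratio -3.14, -3.76 to -2.56), while Itih3 had 65 and 125 (log2 ratio -0.82, -1.27 to -0.37). These intervals do not overlap, so the heavy chains differed by more than counting error. Vtn, vitronectin, an adhesive plasma protein, had 13 reads in replicate 2 and 93 in replicate 1 (log2 ratio -2.71, -3.67 to -1.87). Spink1, a trypsin inhibitor, had 0 reads in replicate 2 and 18 in replicate 1. Against the limit of 3 reads Spink1 was 5.5-fold lower in replicate 2, which leaves out counting error in replicate 1. The exact interval of its log2 ratio, which covers counting error in both libraries, had an upper end of -2.01. Fgl1, a fibrinogen-like hepatokine, had 1.43 TPM from 32 reads in replicate 2 and 1.38 TPM from 34 reads in replicate 1. Its log2 ratio of 0.04 (-0.70 to 0.78) lay at equality. Cps1 had 26 reads in replicate 2 and 16 in replicate 1, and its log2 ratio of 0.83 had an interval that spans 0 (-0.13 to 1.82).

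Across the set, 30 members had at least 20 reads summed over both libraries. Cps1, with 42, was the lowest of these and Spink1, with 18, the highest of the 4 that did not pass. Of the 30, 23 were at least 2-fold lower in replicate 2. Among all 16625 genes past the same minimum 1.81% were, and among the 12341 genes within the members' range of summed reads, from 42 to 5436, 0.948% were. The values of these libraries chose the members, so nothing is read from this contrast. Kng1, at 2.04-fold, was the member just inside the 2-fold bound and Ahsg, at 1.83-fold, the one just outside. The median log2 ratio of the 30 was -2.22, or 4.66-fold lower in replicate 2, and the median of all 16625 genes was 0.003. At least 4-fold lower were 17 members and at least 8-fold lower 4: Fgg, Serpina1b, Serpina6 and Itih2.

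**Figure D2:**
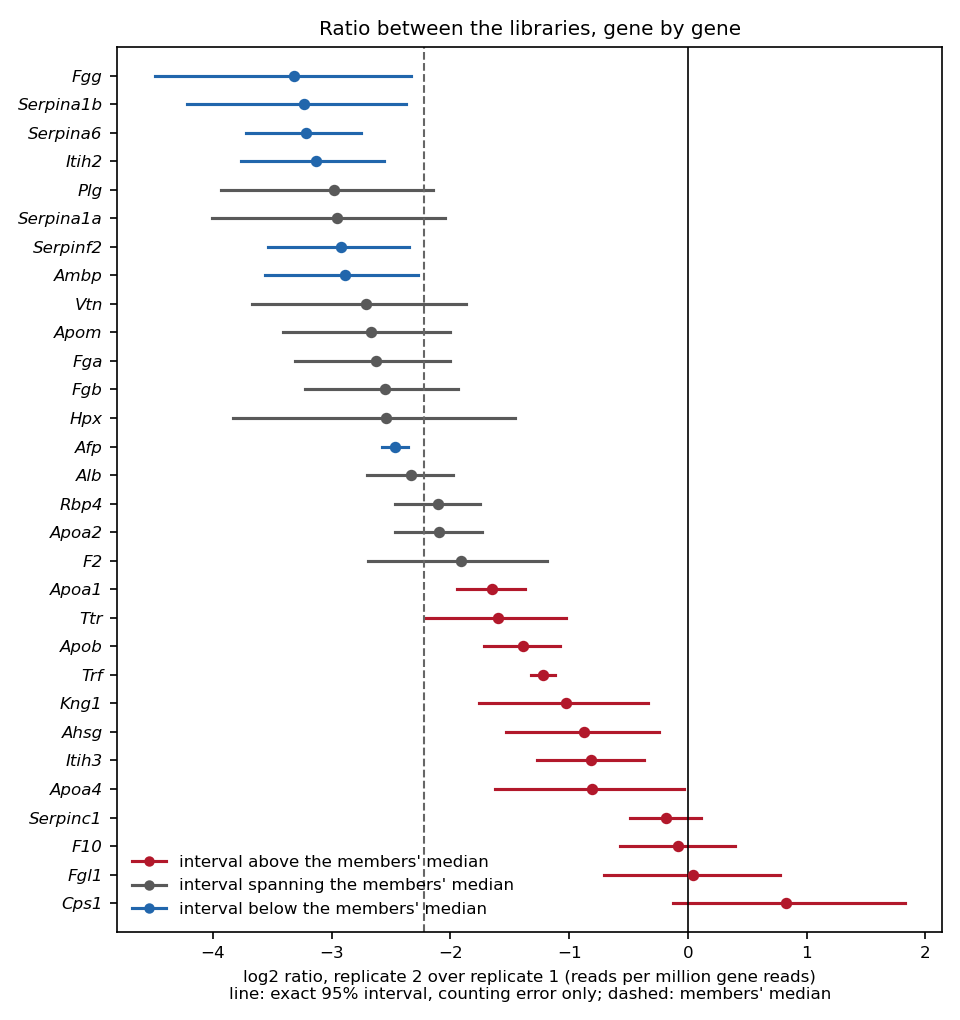
Log2 ratio of replicate 2 over replicate 1 for the 30 genes with at least 20 reads, with exact 95% counting intervals; the dashed line is their median of -2.22 and the solid line is equality. Intervals of 12 genes lie above the median and those of 7 lie below it, and 4 genes span equality.

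A common shift was not excluded for 11 of the 30 members, whose intervals, most of them wide, included the median ratio. The intervals of 12 lay wholly above it: Apoa1, Ttr, Apob, Trf, Kng1, Ahsg, Itih3, Apoa4, Serpinc1, F10, Fgl1 and Cps1. Those of 7 lay wholly below it: Fgg, Serpina1b, Serpina6, Itih2, Serpinf2, Ambp and Afp. These names depend on the median: over the 24 members with at least 100 reads it was -2.51, and then Itih2 and Serpina6 were the ones wholly below it. Within the members' range of reads, 99.6% of all genes lay wholly above that median and 0.0891% wholly below it. The interval of 26 members lay wholly below equality, against 9.48% of genes in that range. Nothing is read from these contrasts either, because the members were chosen on the same libraries. The 4 that spanned equality were Serpinc1, F10, Fgl1 and Cps1. Afp, at -2.46, lay close to the median and was set apart from it by its depth, whereas Hpx, with 59 reads in all, could not be told from ratios between -3.83 and -1.46.

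**Figure D3:**
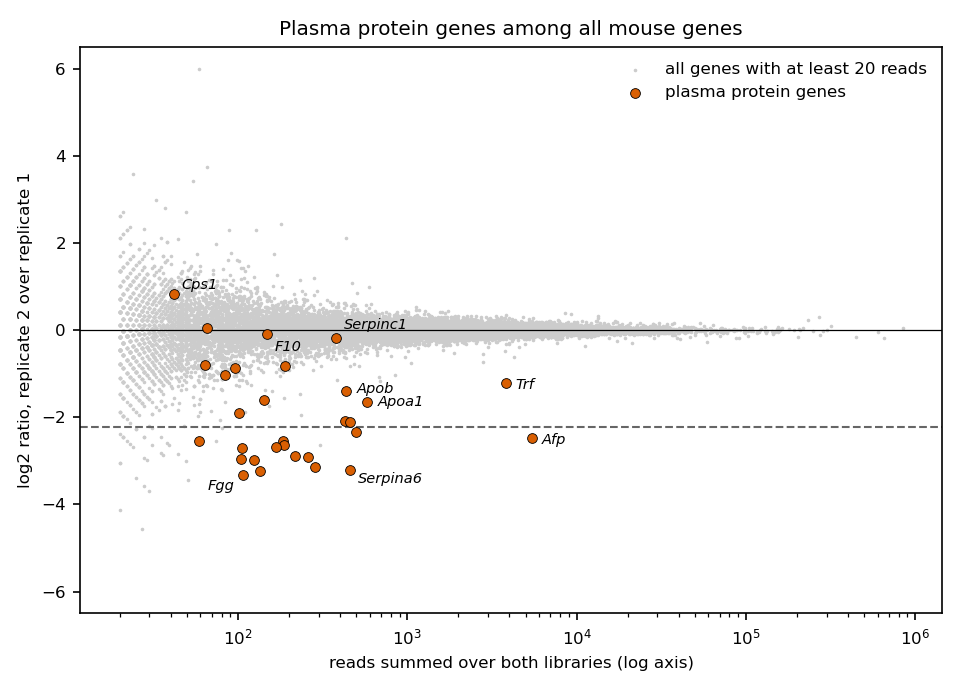
Log2 ratio of replicate 2 over replicate 1 against reads summed over both libraries (log axis) for all genes with at least 20 reads and reads in both libraries (grey) and the plasma protein genes (orange). The central 90% of all genes lie between -0.53 and 0.51, and 23 of the 30 plasma protein genes lie at or under -1. The orange genes were selected on values of these libraries.

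Genes outside the set were ranked in the same way. Of 13292 protein-coding genes with at least 50 reads, 24 were at least 4-fold lower in replicate 2, of which 17 were members and 7 were not. At least 2-fold lower were 75, of which 23 were members and 52 were not. Since values of these libraries chose the members, nothing is read from the members' part of either count. The 7 others included Gm3055, Duxbl2, Gabrp, Gulo, Upk1a and Abcb4. Gulo, the last enzyme of vitamin C synthesis in mouse liver, had 8 reads in replicate 2 and 52 in replicate 1. Abcb4, the phospholipid exporter of the bile canaliculus, had 13 and 67. Gabrp, a GABA receptor subunit, had 39 and 265, and Upk1a, a uroplakin of epithelia, had 10 and 64. Gm3055 had 0 reads in replicate 2 and 55 in replicate 1, and Duxbl2 had 4 and 47. In TPM, Duxbl2 differed less than in reads, with 0.46 in replicate 2 and 0.91 in replicate 1. Next came Tac2, Ina, Serpind1, Apoc2, Gm20517, Gm7879, Cfb and Rgn, between 3.87-fold and 3.01-fold lower, of which Serpind1 (heparin cofactor II), Apoc2 and Cfb (complement factor B) are plasma proteins.

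A companion list of 68 other plasma protein genes was read in the same way, and 67 were matched. Of these 29 had at least 20 reads, with a median log2 ratio of -0.35, and 11 were at least 2-fold lower and 1 at least 2-fold higher in replicate 2. The lower ones included C3, the central complement protein, with 58 reads in replicate 2 and 176 in replicate 1, Serpind1 with 22 and 88, Apoc2 with 14 and 55, and Cfb with 19 and 65. F12 had 2 and 26 reads, Hgfac 4 and 32, Cpb2 2 and 23, Proc 7 and 21, Pzp 11 and 30, Igfbp1 4 and 17, and C1s1 1 and 26. Ceruloplasmin, Cp, was the higher one, with 35 reads in replicate 2 and 13 in replicate 1. The most abundant genes of the list, Apoe, Aplp2, Igfbp2 and Serpinf1, are made by many cell types. Their log2 ratios were -0.02, -0.004, -0.06 and -0.11.

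Hepatocyte enzymes were mostly low in reads, whereas several regulators were not. Of 26 enzymes and transporters 6 had at least 20 reads, with a median log2 ratio of -0.12 and 0 at least 2-fold apart, led by Ass1, Fah and Mttp, which other tissues also express. The 20 others summed to 36 reads in replicate 2 and 86 in replicate 1, and 5 had 0 reads in both libraries. Fabp1, the liver fatty acid-binding protein, had 4 reads in replicate 2 and 9 in replicate 1. Of 17 regulators 11 had at least 20 reads, with a median log2 ratio of -0.10 and 0 at least 2-fold apart, led by Dlk1, Prox1, Tbx3 and Hhex, which the heart also expresses. The defining factor Hnf4a stayed under the minimum, with 4 reads in replicate 2 and 15 in replicate 1. Cebpa had 24 reads in replicate 2 and 45 in replicate 1.

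Markers of other tissues and cells were set beside the plasma protein genes. The 18 erythroid genes, of interest because the fetal liver makes red cells, had a median log2 ratio of -0.17 and 0 at least 2-fold apart. Of the 18, 17 had a log2 ratio below 0, the lowest at -0.60, beside a median of 0.003 over all 16625 genes. The list summed to 65729 TPM in replicate 2 and 73069 TPM in replicate 1, led by Hbb-y and Hba-a2 before Hba-a1 and Hba-x. The 11 matched genes of liver endothelium and stellate cells had a median of -0.17, with Stab2 at least 2-fold lower in replicate 2 (30 reads, against 68 in replicate 1) and Hgf at least 2-fold higher (85 reads, against 40), and were led by Dcn, Colec11, Ngfr and Oit3. The 15 of 18 yolk sac and visceral endoderm genes past the minimum had a median of 0.03, were led by Cited1, Gata6, Dab2 and Apela, and had Entpd2 higher in replicate 2 (14 and 6 reads). The 8 of 12 macrophage genes past the minimum had a median of -0.06, led by Lyz2, C1qb, C1qc and C1qa.

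The 15 of 20 gut and lung epithelial genes past the minimum had a median log2 ratio of -0.01, led by Krt19, Spint2, Krt18 and Krt8. Nkx2-1, a factor of lung and thyroid, went the other way from the plasma protein genes, with 49 reads in replicate 2 and 5 in replicate 1 (log2 ratio 3.42, 2.10 to 5.10). The 16 cardiomyocyte genes had a median of 0.03 and 0 at least 2-fold apart. The part of any of these cells in the ratios of the plasma protein genes was not tested.

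**Figure D4:**
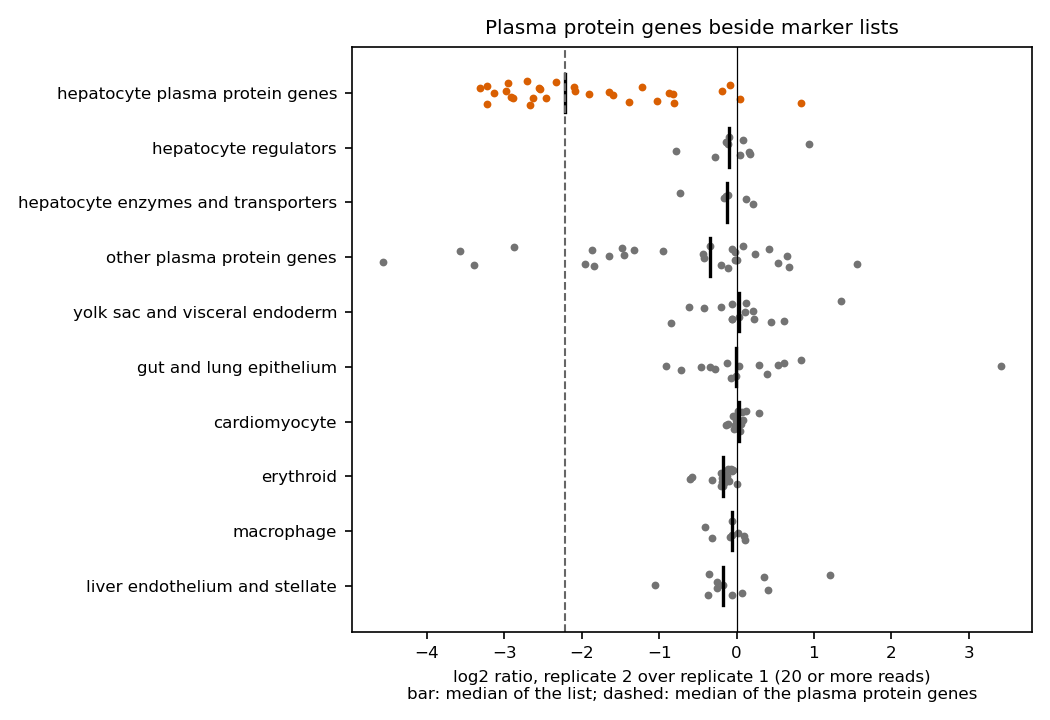
Log2 ratio of replicate 2 over replicate 1 for single genes with at least 20 reads in the plasma protein set (orange) and 9 marker lists (grey), with each list's median as a bar. The median of the plasma protein genes is -2.22, and the medians of the other lists lie between -0.35 and 0.03. The plasma protein genes were selected on values of these libraries, so nothing is read from the gap to the lists.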

How the data were processed

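Total RNA of 2 heart libraries was sequenced. The labels' protocols name mirVana extraction and cite a SMARTer low-input cDNA manual. The assembly is mm10 per the labels, with GENCODE M4 per the deposited notes. The aligner and quantifier are not named in the sources used here. The authors deposited expected counts (estimated reads, with posterior means and, in a column used here as a score of uncertainty, posterior SDs), TPM, FPKM and the percent of each transcript in its gene. TPM covers all 69691 rows, so an abundant feature moves the others.

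Here expected counts were rounded to whole reads and divided by the reads on mouse genes. Ratios are replicate 2 over replicate 1, for genes with at least 20 reads summed over both libraries. Exact Clopper-Pearson 95% intervals cover counting error only, since PCR copies are not independent molecules. Between the libraries, the chi-square per gene was 4.39, above the 1 of sampling noise, so both were kept. Nothing names the litters or animals pooled in each, so the spread may be technical.

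The members and the 9 marker lists were chosen with earlier results of these data known. Named genes were the members, up to 4 of each list with the highest mean TPM and any list gene at least 2-fold apart, and the 15 lowest other protein-coding genes with at least 50 reads; Zbtb37, Gm20425 and Gm10680, the transcripts described, and the low list genes Hnf4a and Cebpa were added after their values were seen. Some genes and a motif that these rules take in are not reported here. Reads on rows without a GENCODE M21 name were 0.201%. The ratio step was tested on 20 simulated draws of 43346 genes, with 5 members unshifted and the others shifted by -2. It recovered a median of -1.96, averaged over the draws. The draws held counting error only, less than the spread between these libraries. They therefore do not test which real members lie apart from the median. Tools were edgeR 4.0.16 in R 4.3.3 (TMM factors only), and scipy 1.17.1, pandas 2.3.3, matplotlib 3.10.9 and numpy 2.4.6 in Python 3.11.15. Alternatives covered scaling, unit, pseudocount, read minimum, fold, interval level and detection bound.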

Additional observations from a re-analysis of the deposited data

How the results depend on the processing

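Under TMM factors, median-of-ratios factors or ERCC spike-in reads, all ratios moved by at most 0.0225 on the log2 scale. The members' median ran from -2.24 to -2.22, 23 members were at least 2-fold lower, 19 lay apart from the median and 26 lay wholly below equality. The pseudocount mattered for low genes: on TPM + 1 the median log2 ratio was -1.31 and 20 members were 2-fold lower, against -2.14 and 22 on TPM + 0.1, and 16 members left their own counting interval on TPM + 1; a larger pseudocount pulls low levels toward equality by construction. With at least 100 reads, 24 members passed, their median was -2.51 in place of -2.22, and 11 lay apart from it, against 19: 2 below, against 7, and 9 above, against 12. Both the members tested and the median changed, and Apoa2 and Rbp4 were then above it. At 2 TPM in both libraries 6 members were detected, against 14 at 1 TPM, and the count without replicate 1 or without replicate 2 ranged from 14 to 30. The ratio of summed TPM, replicate 2 over replicate 1, was 0.268; it was 0.305 without Afp and 0.239 without Afp, Trf, Apoa1 and Apoa2. On ERCC scaling the cardiomyocyte median was 0.00438 (0.0269 on gene reads) and the erythroid median -0.194 (-0.171 on gene reads). Of the alternatives run, the others stayed within 1.5 times the count or within counting error. The count of intervals below equality was chosen after seeing the data. No paired analysis was possible because there is 1 group. No group had the 4 samples that an outlier test needs. Depth limits 19 of the 30 members, with up to 286 reads, whose intervals span more than 1 log2 unit.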
